A study of Heliocidaris erythrogramma with 5 samples.

Results

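The step from 42 to 48 hours post fertilization (hpf) was described in whole larvae of *Heliocidaris erythrogramma*, a sea urchin whose non-feeding larva builds the adult rudiment soon after gastrulation. The step compared 4268 cells of the 42 hpf library with 4080 cells of the 48 hpf library, 8348 of the 26740 cells kept over 5 libraries labelled 36, 42, 48, 56 and 60 hpf. Cells were chosen by their labelled age and by 3 limits, over 200 genes, under 10000 unique molecular identifiers (UMIs, the tags that mark single captured RNA molecules) and under 4000 genes. Both groups were cells of dissociated larvae, the labels give age as their sole difference and name no genotype or treatment, and each age had 1 library, so no difference had a replicate check. UMIs were summed over cells and scaled to a total of 1000000 per library (CPM). Every interval below is a 95% interval that covers counting error only. No p-value was computed.

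In sea urchins the mesoderm gives rise to skeletogenic cells, to pigment and blastocoelar cells, and to the coelomic pouches that line the gut. In direct developers such as this species the left coelom and the overlying ectoderm together form the rudiment of the adult. Neurons, ciliated ectoderm and the larval skeleton differentiate over the same hours. Transcription factors such as *Alx1* (skeleton), *Scl* (blastocoelar cells) and *Phox2* (neurons) are known from other urchins and animals as regulators of cell lineages. The study reports *Scl* in most *Alx1* cells of the skeletogenic lineage of this species, so *Scl* does not mark blastocoelar cells alone.

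The 42 hpf library stood apart from its neighbours in depth and in ribosomal protein messages. Its cells held a median of 1634.5 UMIs and 707 genes against 1119.5 UMIs and 567 genes at 48 hpf, and 767 of its 4268 cells held at least 3000 UMIs against 228 of 4080. The other libraries had 256 of 5314 such cells at 36 hpf, 72 of 4106 at 56 hpf and 595 of 8972 at 60 hpf. Ribosomal protein genes took 24.0% of UMIs at 42 hpf and 16.5% at 48 hpf, with 11.5% to 16.9% in the other 3 libraries. Both libraries shared 4 cell barcodes. In summed counts, fewer cells of a type and less RNA per cell cannot be told apart, nor can age and library.

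Of 22791 features with a UMI at either age, 13723 had at least 20 UMIs over both libraries and were compared. In this set, 785 features (5.72%) rose from 42 to 48 hpf and 504 (3.67%) fell, where rose and fell stand for a CPM ratio of at least 2-fold. The whole interval lay beyond 2-fold for 104 of the higher and 81 of the lower features. The lower features carried more RNA at 42 hpf, and the higher features carried more at 48 hpf. The lower features held 3.43% of UMIs at 42 hpf and 1.52% at 48 hpf, whereas the higher features went from 0.908% to 2.13%. The split depended on the scaling. Size factors, trimmed means and totals without ribosomal protein genes each moved all log2 ratios down, by 0.14 to 0.15, and changed the higher share of calls from 60.9% to 41.4%, 39.2% and 42.6%. The median log2 ratio over all compared features was 0.09, and medians of lists are to be read against it.

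**Figure D1:**
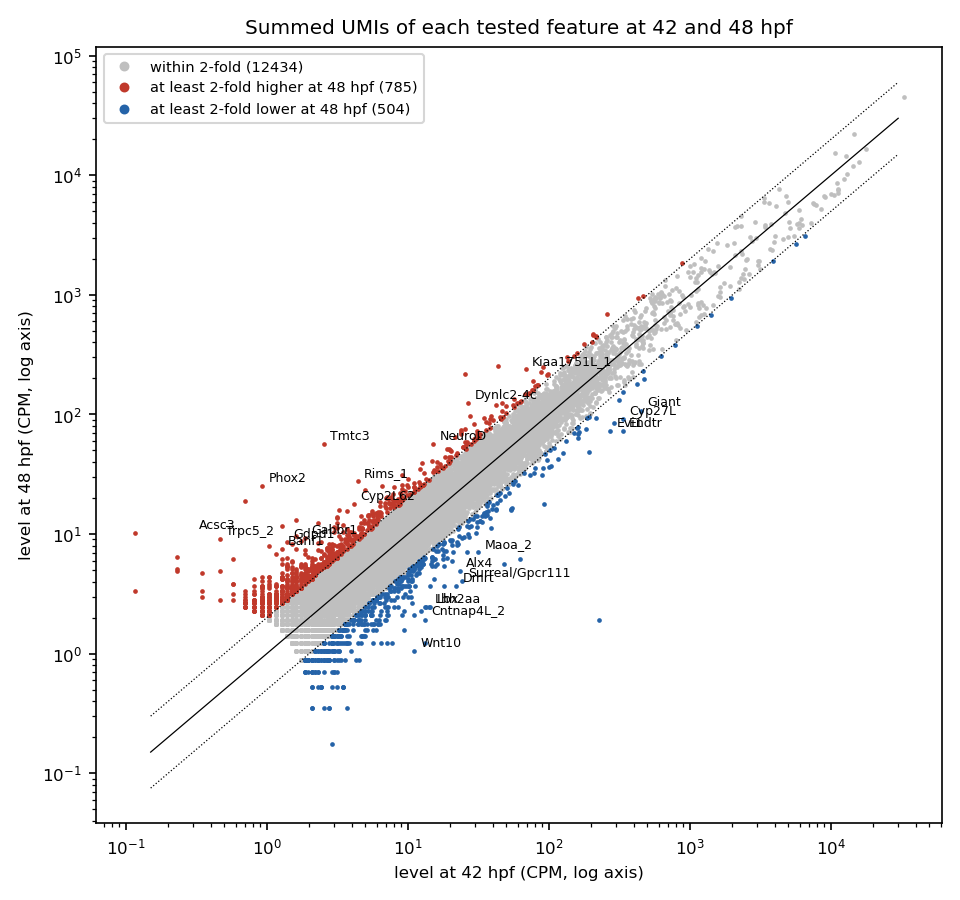
Each point is 1 of 13723 features, with its level at 42 hpf (x axis) and 48 hpf (y axis) in CPM on log axes, 0 counts drawn at 3 UMIs. Dotted lines mark 2-fold, red points are the 785 higher and blue points the 504 lower features, and the 24 labelled genes include *Giant* and *Evi1* below and *Phox2* and *Dynlc2-4c* above the diagonal.

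Several regulators of the skeletogenic lineage fell. Of 13 compared members of this list, 7 fell (3.67% of all features did), 1 rose (5.72% of all features did) and the median log2 ratio was -1.31. The summed list was at 0.671 (0.643 to 0.7) over all cells and at 0.697 (0.645 to 0.752) in cells of at least 3000 UMIs. In the 3 shallower ranges (500 to under 1200, under 1800 and under 3000 UMIs per cell) it was at 0.988, 1.05 and 1.03, with intervals that include 1. *Tgif* alone gave 3728 of the 6883 summed UMIs at 42 hpf and 1804 of the 3053 at 48 hpf. *Alx1*, the homeobox gene that specifies skeletogenic cells in urchins, is split over 3 gene models, so the division of counts between them is uncertain. The 2 models with UMIs had 59 and 195 UMIs at 42 hpf and 11 and 47 at 48 hpf, ratios of 0.282 (0.134 to 0.542) and 0.365 (0.259 to 0.504). Its paralogue *Alx4*, expressed with it in urchin mesoderm, went from 23.4 to 4.91 CPM (202 to 28 UMIs), a ratio of 0.21 (0.136 to 0.312). *Sim*, a bHLH-PAS factor, went from 53.6 to 16.1 CPM (0.301, 0.238 to 0.377). *Ets1/2*, the factor that acts with *Alx1* in skeletogenic mesoderm, went from 36.6 to 14.4 CPM (0.392, 0.304 to 0.502). In cells of 1800 to under 3000 UMIs *Sim* was at 0.388 (0.254 to 0.575) and *Alx4* at 0.343 (0.139 to 0.74). *Ets1/2* was at 0.574 (0.364 to 0.88) there and *Alx1* at 0.575 (0.299 to 1.05). *Erg* and *FoxB* fell as well, and *Hhex* was 53.6 and 29.8 CPM, within 2-fold. The single rise was *Tbr*, a T-box gene, on 8 and 20 UMIs (3.78, 1.6 to 9.93). The study found *Tbr*, *FoxO* and *FoxB*, all on this list, in few or no *Alx1* cells of the skeletogenic lineage. Their counts here need not come from that lineage.

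Skeletal matrix and biomineral genes were rare. Of 15 compared members, 6 fell (*Pm27*, *Sm32*, *Msp130r2*, *Sm37*, *Otop2L* and *P16*) and 1 rose (*Slc26a5_1*, an anion transporter), with a median of -0.63. Over all features 3.67% fell and 5.72% rose, the latter near the share of this list. *Msp130r2*, a skeletogenic cell surface protein, went from 27 to 11.4 CPM (0.422, 0.315 to 0.558) and *Sm37*, a spicule matrix protein, from 14.8 to 6.48 CPM (0.437, 0.295 to 0.635). Few cells carried these values. *Sm37* UMIs came from 12 cells at 42 hpf and 4 cells at 48 hpf, and 1 cell held 86.5% of those at 48 hpf, as for *P16* with 68.6%. In cells of 800 to under 1800 UMIs alone the log2 ratios turned, to 4.95 for *Sm37*, 2.91 for *P16* and 4.81 for *Msp130r2*. At 42 hpf, 16 of the 37 cells with *Msp130r2* also had *Alx1* (43.2%, 27.1 to 60.5) and 18 had *Scl* (48.6%, 31.9 to 65.6), against 1.82% and 2.46% of the other cells.

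*Scl*, a bHLH factor of blastocoelar and blood-type cells, fell from 99.6 to 36.6 CPM (860 to 209 UMIs, 0.368, 0.314 to 0.428). Cells with an *Scl* UMI went from 122 to 49, and cells with at least 3 such UMIs from 52 to 11. *GataC*, which acts with *Scl* in these cells, was 17.5 and 10.2 CPM (0.581, 0.422 to 0.791). *GataC* was lower in cells of at least 3000 UMIs alone (128 and 10 UMIs, 0.268, 0.125 to 0.509), and in the 3 shallower ranges it had 2 and 11, 0 and 14, and 21 and 23 UMIs, each higher at 48 hpf per UMI. Of 18 compared blastocoelar and immune genes 1 fell (3.67% of all features did) and 1 rose (5.72% did), with a median of 0.41. Ratios were above 1 for 14 of the 18 and below 1 for 4. *Astacin4*, a blastocoelar marker, was 169 and 212 CPM (1.26, 1.16 to 1.36). The immune effector *MacpfD.3*, a pore-forming protein gene and one of the most abundant messages, was not lower, with 10689 and 15406 CPM for its main copy (1.44, 1.43 to 1.45). That copy was found in 2791 of 4268 cells at 42 hpf and 2899 of 4080 at 48 hpf, so its level does not describe a single cell class. Near-identical copies make the level of each *MacpfD.3* model uncertain.

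Genes of the gut and coelomic pouches included many falls. Of 18 compared members 8 fell, against 3.67% of all features (among them *Hox8*, *Wnt9*, *Hox8_1*, *HesA*, *FoxF*, *FoxA* and *Tbx6/16*, the last 3 named after their values were seen) and 1 rose (*Ptf1a*, a bHLH factor of exocrine pancreas in vertebrates), with a median of -0.73. *Wnt9*, a secreted Wnt ligand, went from 13.4 to 2.45 CPM (116 to 14 UMIs, 0.183, 0.0968 to 0.319). *Hox8_1*, a middle Hox gene, went from 20.6 to 8.06 CPM (0.391, 0.276 to 0.543), and *Hox8*, a second model of the same name, from 24 to 2 UMIs (0.126, 0.0144 to 0.508). *Hox11/13b*, a posterior Hox gene, was within 2-fold, and *Endo16*, a gut protein, was 7.07 and 5.78 CPM (0.818, 0.519 to 1.27).

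The 12 largest falls among features with a symbol included 3 developmental regulators, *Wnt10*, *Lbx* and *Dmrt*, along with *Giant*, *Evi1* and *Alx4*. *Wnt10*, a secreted Wnt ligand, had 96 UMIs at 42 hpf and 6 at 48 hpf (11.1 and 1.05 CPM), a ratio of 0.0945 (0.0339 to 0.213). *Lbx*, a homeobox gene of muscle precursors in vertebrates, went from 124 to 14 UMIs (0.171, 0.0907 to 0.297). *Dmrt*, a DM-domain factor, went from 190 to 21 UMIs (0.167, 0.101 to 0.263). Outside these 12, *MyoD2*, of the myogenic bHLH family, fell from 81 to 9 UMIs (0.168, 0.0742 to 0.335), whereas the other 15 of 16 compared muscle genes were within 2-fold. All 4 of these genes were higher at 42 hpf than at 36 hpf, where *Wnt10* was 2.5, *Lbx* 5.51, *Dmrt* 12 and *MyoD2* 3.63 CPM.

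These genes were found in 2 sets of cells at 42 hpf. Of 63 cells with an *Alx4* UMI, 45 had *Alx1* (71.4%, 58.7 to 82.1), against 1.14% of cells without *Alx4*. *Alx1* was also present in 16 of 25 *Wnt10* cells, 28 of 44 *Wnt9* cells, 15 of 23 *Lbx* cells and 22 of 37 *MyoD2* cells. *Dmrt* lay elsewhere, with *Alx1* in 0 of its 49 cells (up to 7.25%), *Giant* in 48 (98%, 89.1 to 99.9) and *Cyp27L* in 43. *Alx4* cells were deep, with a median of 3821 UMIs against 1617 in the others, but the gap stayed when the second gene was read after thinning every cell to 500 UMIs, with *Alx1* in 22.2% of *Alx4* cells and 0.333% of other cells. Cells of 1 library are not replicates, and these overlaps are descriptions.

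*Giant*, a bZIP factor that the study lists with the putative rudiment ectoderm, was the most abundant of the steep falls. It went from 3878 to 614 UMIs, or from 449 to 108 CPM (0.239, 0.22 to 0.261). Its level was 316 CPM at 36 hpf and 118 CPM at both 56 and 60 hpf. *Acsc*, a proneural bHLH gene of the achaete-scute family on the same list, fell from 91.1 to 35.9 CPM (0.394, 0.337 to 0.461). The other 10 compared members of that list, mainly *B4galt6* galactosyltransferase and *Smadip* models, were within 2-fold, and *B4galt6_3* in its main model was 719 and 535 CPM (0.743, 0.711 to 0.776). The study picked these genes from the same libraries. *Evi1*, a zinc finger factor, fell from 273 to 72.9 CPM (0.267, 0.24 to 0.297) and *Cyp27L*, a cytochrome P450 gene, from 337 to 91.8 CPM (0.273, 0.248 to 0.299).

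*Giant*, *Evi1* and *Cyp27L* were largely found in the same cells at 42 hpf. Of 623 cells with *Evi1*, 388 had *Giant* (62.3%, 58.3 to 66.1) and 366 had *Cyp27L* (58.7%, 54.8 to 62.6), against 7.9% and 7.27% of the other cells. *Evi1* cells were deeper, with a median of 3216 UMIs against 1478, and after thinning the second gene *Giant* was in 35.5% of them and 3.48% of other cells. *Acsc* overlapped less, with *Giant* in 112 of its 305 cells (36.7%, 31.3 to 42.4). Among 34 gene models of transcription factors that the study describes for the rudiment, 6 fell and 0 rose at 2-fold (*Giant*, *Snail*, *Mbx1*, *Acsc*, *Tbx6/16* and *Nr1x*), with a median of -0.22. Over all features 3.67% fell and 5.72% rose. The study chose these factors on the same larvae. *Snail*, the zinc finger repressor, went from 42.5 to 15.8 CPM (0.371, 0.291 to 0.468).

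**Figure D2:**
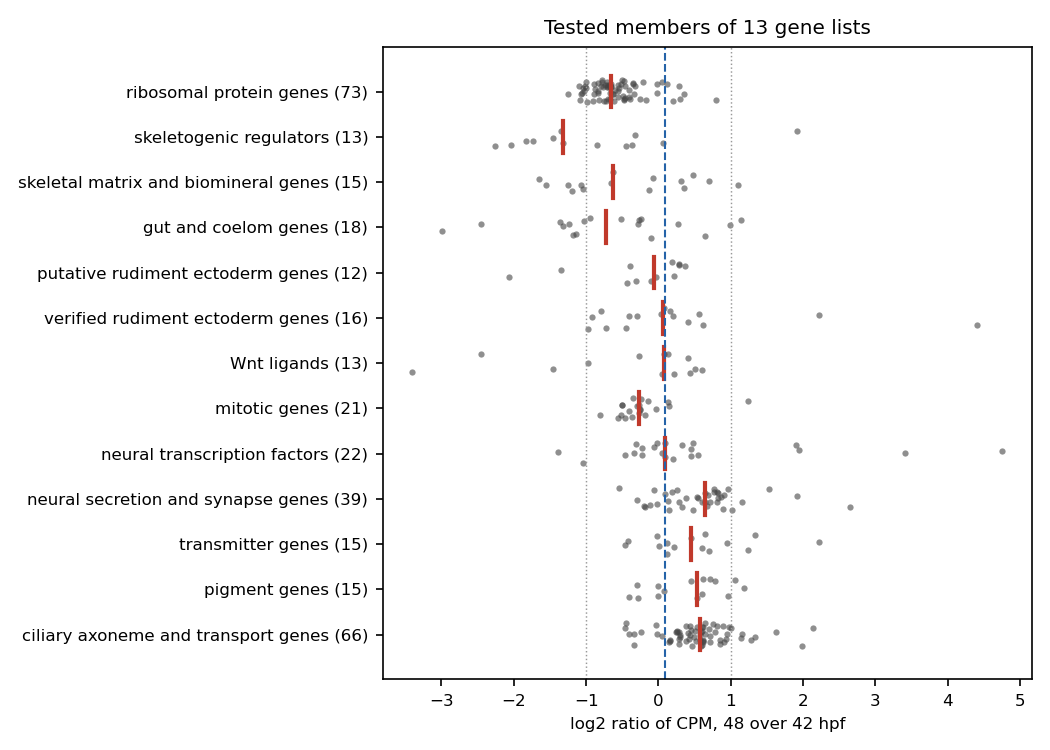
Each dot is 1 compared member of a gene list, with its log2 ratio of CPM (48 over 42 hpf) on the x axis, and the number of members stands in parentheses. Red bars are list medians, the dashed line is the median over all 13723 features and dotted lines mark 2-fold. Skeletogenic regulators have the lowest median (-1.31) and neural secretion genes the highest (0.64).

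Genes listed for the verified rudiment ectoderm cluster of the study moved apart from one another. The word verified belongs to the cluster, which the study mapped by staining *Egfi*, and not to each gene. *Dlx*, a homeobox gene, was 145 and 76.9 CPM (0.529, 0.473 to 0.59), *Msx* 147 and 84.8 CPM (0.576, 0.518 to 0.64) and *Wnt3* 96.1 and 49.1 CPM (0.51, 0.444 to 0.585), all within 2-fold but with intervals below 1. The fibropellin gene *Egfi*, an EGF-repeat protein of the apical matrix, was split over models with ratios from 0.815 to 1.48 that share sequence. Of the models of *Dynlc2*, a dynein light chain, 2 rose. *Dynlc2-4c* went from 231 to 714 UMIs, or 26.8 to 125 CPM (4.68, 4.02 to 5.45), and *Dynlc2-4d* from 2 to 28 UMIs (21.2, 5.34 to 183). *Dynlc2-5b* was 49.3 and 51.9 CPM (1.05, 0.903 to 1.22). The members of this family resemble one another, so counts may be divided among them.

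Of 15 compared models of genes stained in situ by the study, the 2 that rose (5.72% of all features did) were both *Dynlc2*. The 3 that fell (3.67% of all features did) were *Scl* and the *Alx1* models with UMIs. Below is 1 of the 10 *Dynlc2* probe pairs, because it shows how that message was read in tissue. Probes are given 5′ to 3′, with the 25 bases that bind the message in capitals and the initiator part with its spacer in lower case.
*dynlc2* first probe: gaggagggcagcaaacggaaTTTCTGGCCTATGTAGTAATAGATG
*dynlc2* second probe: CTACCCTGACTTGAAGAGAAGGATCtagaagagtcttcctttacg
Which *Dynlc2* model these probes bind was not examined.

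The *Dynlc2-4c* rise came with more UMIs per cell. At 42 hpf, 174 cells (4.08%) had a UMI with a mean of 1.33 per such cell and 10 cells with at least 3. At 48 hpf, 116 cells (2.84%) had one, with a mean of 6.16 and 27 cells with at least 3. After thinning to 500 UMIs per cell the shares were 0.773% (0.533 to 1.08) and 1.23% (0.911 to 1.61), which overlap, and the sign of the difference turned. One cell held 116 of the 714 UMIs at 48 hpf, and without the top cell of each library the ratio was 4.09 (3.5 to 4.8).

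Neural genes contained the largest rises. *Phox2*, a homeobox factor of neurons, had 8 UMIs at 42 hpf and 143 at 48 hpf (0.927 and 25.1 CPM), a ratio of 27 (13.4 to 63.8). *Hb9*, the homeobox factor of motor neurons in vertebrates, went from 5 to 35 UMIs (10.6, 4.13 to 34.6). *NeuroD*, a bHLH factor of neuronal differentiation, went from 15.2 to 56.8 CPM (3.74, 3.04 to 4.62), and *Scratch*, a Snail-family factor of neurons, from 6.6 to 25.4 CPM (3.85, 2.81 to 5.32). In cells of 1800 to under 3000 UMIs *NeuroD* was lower at 48 hpf (73 and 14 UMIs, 0.345, 0.18 to 0.617) and *Scratch* was at 0.80 (0.448 to 1.38), while both were higher in the other 3 depth ranges. *Acsc3*, of the achaete-scute family, had 1 UMI and then 58 in its main model (87.7, 15.1 to 3524). Those 58 UMIs came from 7 cells, and 25 of them from 1 cell.

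The rest of the 22 compared neural factors did not share this size. Apart from the 4 rises, *Mbx1* fell from 10.5 to 4.03 CPM (0.382, 0.231 to 0.609) and *Brn1/2/4*, a POU factor, from 6.14 to 2.98 CPM (0.485, 0.263 to 0.851). *Onecut*, which marks the ciliary band and neurons, was 171 and 233 CPM (1.36, 1.27 to 1.47). Over all features 5.72% rose and 3.67% fell. The list median was 0.09, equal to that of all features.

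Of 39 compared models of secretion and synapse genes 5 rose and 0 fell, against 5.72% and 3.67% of all features, with a median of 0.64. Ratios were above 1 for 32 of them and below 1 for 7 (the name match also takes other Rab genes). *Rims_1*, a scaffold of the synaptic active zone, went from 4.4 to 27.7 CPM (6.29, 4.39 to 9.21). *Secrtag*, a secretagogin calcium sensor, went from 136 to 301 CPM (2.22, 2.06 to 2.39). *Syt4* and *Syt5*, synaptotagmins of secretory vesicles, had ratios of 2.02 (1.7 to 2.39) and 2.89 (2.06 to 4.08). Of 15 transmitter genes 3 rose and 0 fell, with a median of 0.45. *Th*, tyrosine hydroxylase of catecholamine synthesis, went from 14 to 43 UMIs (4.65, 2.49 to 9.19), *Sert*, the serotonin transporter, from 15 to 25 (2.52, 1.28 to 5.14) and *AchE_9*, a cholinesterase gene, from 53 to 83 (2.37, 1.66 to 3.41). *Th* was seen in 5 and 7 cells only, and without the top cell of each library *Sert* was at 1.89 (0.826 to 4.42).

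Other genes, some of them for membrane proteins, were among the 12 largest rises. *Trpc5_2*, a cation channel gene, went from 4 to 52 UMIs (19.7, 7.24 to 74.9) and *Gabbr1*, a metabotropic GABA receptor, from 16 to 53 (5.01, 2.82 to 9.39). One cell held 25 of the 53 *Gabbr1* UMIs, and without the top cells its ratio was 2.82 (1.46 to 5.69). *Kiaa1751L_1* went from 592 to 1377 UMIs, or 68.6 to 241 CPM (3.52, 3.19 to 3.88), while cells with a UMI went from 42 to 53.

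Several of the genes that rose, neural genes among them, were found in the same cells at 48 hpf. Of 26 *Phox2* cells, 15 had *NeuroD* (57.7%, 36.9 to 76.6), 14 had *Scratch*, 18 had *Isl*, a LIM homeobox factor, and 7 had *Hb9*, against 1.01%, 0.74%, 4.59% and 0.0987% of the other cells. Of 53 *Kiaa1751L_1* cells, 37 had *Secrtag* (69.8%, 55.7 to 81.7), 32 had *Syt4* and 0 had *Phox2* (up to 6.72%). *Rims_1* cells had *Secrtag* in 26 of 45 and *Phox2* in 1. With *Phox2* in 26 of 4080 cells (0.637%), 53 and 45 cells are too few to tell whether the groups are separate. *Secrtag* was present in 93 of 107 *Syt4* cells (86.9%, 79 to 92.7).

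**Figure D3:**
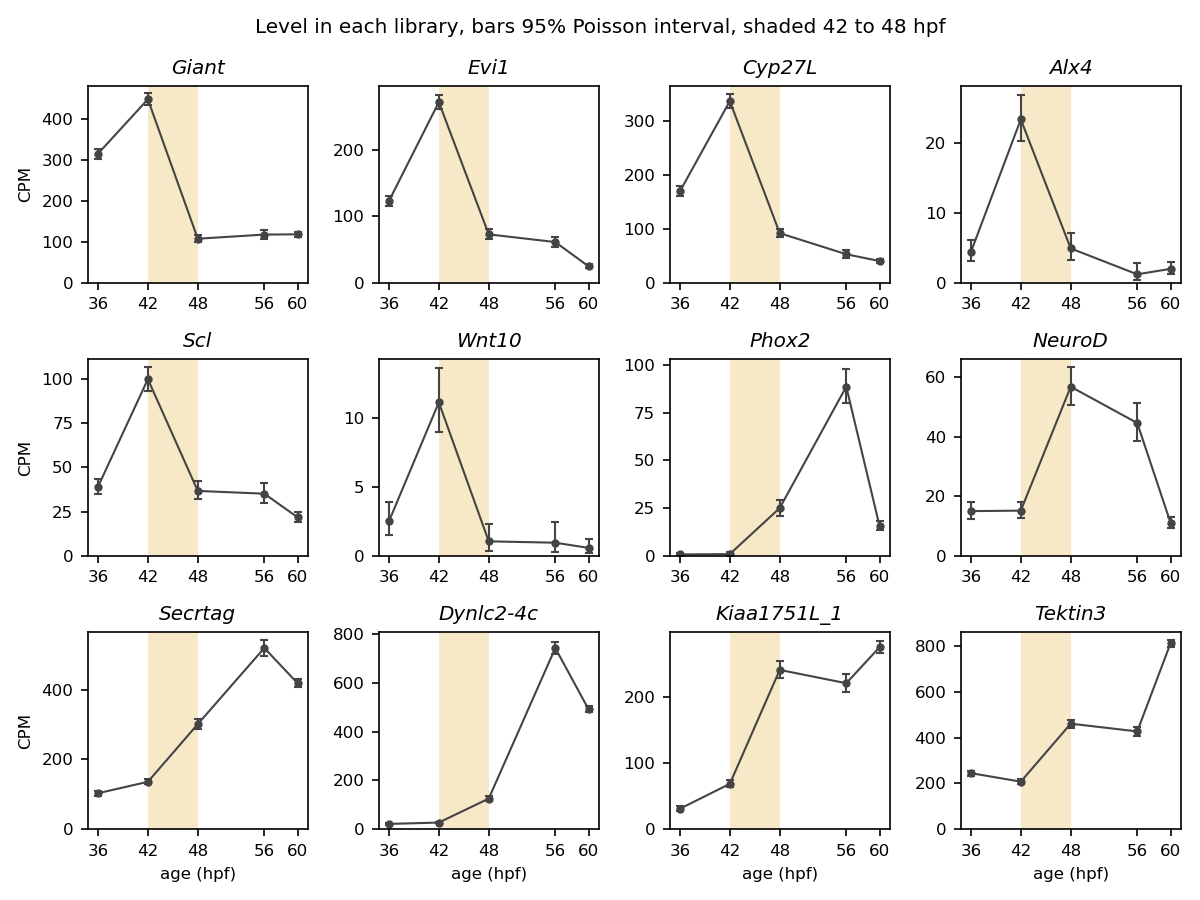
Level in CPM (y axis, from 0) of 12 genes in the libraries of 36, 42, 48, 56 and 60 hpf (x axis), 1 library per age, with 95% Poisson intervals as bars and the 42 to 48 hpf step shaded. *Giant*, *Evi1*, *Cyp27L*, *Alx4*, *Scl* and *Wnt10* are highest at 42 hpf, and *Phox2*, *Secrtag* and *Dynlc2-4c* are highest at 56 hpf.

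Several ciliary genes rose. Of 66 compared genes for axonemal dyneins, intraflagellar transport and related parts, 8 rose (5.72% of all features did), 0 fell (3.67% did) and the median was 0.57. Ratios were above 1 for 58 of the 66, against 57.1% of all features. *Tektin3*, a protein of axonemal microtubules, went from 207 to 460 CPM (2.22, 2.09 to 2.36) and was found in 25.8% and 34.9% of cells. *Dnah9L*, an outer arm dynein heavy chain, went from 7.99 to 24.7 CPM (3.09, 2.3 to 4.18) and *Kif3AL*, a kinesin motor of ciliary transport, from 11 to 32 UMIs (4.4, 2.16 to 9.68). Both are members of large families with similar sequences.

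Of 15 compared pigment genes 2 rose (5.72% of all features did) and 0 fell, with a median of 0.53. Summed, they were at 1.69 (1.64 to 1.74), and at 0.982 (0.934 to 1.03) in cells of 1200 to under 1800 UMIs. *Fmo5_1* and *Fmo2_2*, flavin monooxygenase genes whose relatives act in pigment synthesis in urchins, went from 37.6 to 85.2 CPM (2.26, 1.96 to 2.61) and, for the latter, from 72.5 to 151.2 CPM (2.09, 1.88 to 2.31). *Mif4*, a macrophage inhibitory factor gene of pigment cells, was 592 and 1021 CPM (1.73, 1.66 to 1.79) and *Pks1*, the polyketide synthase of echinochrome synthesis, 23.1 and 33.3 CPM (1.44, 1.18 to 1.77). *Pks1* was below 1 in the 2 middle depth ranges, at 0.779 (0.55 to 1.09) and 0.861 (0.551 to 1.32). All 4 were higher at 36 than at 42 hpf, *Mif4* at 1532 and *Pks1* at 54.1 CPM. At 48 hpf, 124 of 136 *Pks1* cells had *Mif4*. *Apob*, a lipid carrier gene, was 1339 and 2439 CPM (1.82, 1.78 to 1.87). *Cyp2L62*, another cytochrome P450 gene, rose from 4.17 to 17.7 CPM (4.24, 2.87 to 6.39) and was 89.9 and 115 CPM at 56 and 60 hpf.

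Signalling genes were mostly within 2-fold, and over all features 5.72% rose and 3.67% fell. Of 13 Wnt ligands 3 fell (*Wnt10*, *Wnt9* and *Wnt16*) and 0 rose. Of 13 receptors and modulators, *Dkk1*, a secreted Wnt antagonist, fell from 115 to 42.4 CPM (0.368, 0.318 to 0.423) and the receptor gene *Fzd1/2/7* from 13.2 to 6.31 CPM (0.478, 0.319 to 0.7). Of 30 TGF-beta and BMP genes, 3 fell (*Bmp2/4*, *Bmp3* and *Tgfbr2*) and 2 rose, the latter near the 5.72% of all features. The rises were *Chordin* and *Alkbh7* (18 and 26 UMIs), which the name match took although it is not a gene of this pathway. *Bmp2/4*, the ligand of dorsal ectoderm in urchins, went from 13 to 6.13 CPM (0.473, 0.314 to 0.696), while *Chordin*, its antagonist, went from 28 to 39 UMIs (2.11, 1.26 to 3.55). *Nodal*, the ligand of the oral and right sides, was 35.7 and 23.7 CPM (0.663, 0.537 to 0.814). The Hedgehog ligand *Hh* went from 92 to 23 UMIs (0.378, 0.228 to 0.602), the only call among 13 genes of its pathway. Of 26 models matched by nuclear receptor names 3 fell and 1 rose. *Couptf*, an orphan receptor, was at 32 and 2 UMIs in 1 of its models (0.0945, 0.011 to 0.371). The other falls were *Nr1x* and *RarS* (80 and 25 UMIs), a transfer RNA synthetase gene that the name match took and no receptor. *Vasa*, the germline RNA helicase, fell from 91 to 17 UMIs (0.283, 0.158 to 0.478), the only call among 8 germline genes.

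All ribosomal protein genes together, 80 with a UMI, were 239809 CPM at 42 hpf and 164750 CPM at 48 hpf, a ratio of 0.687 (0.685 to 0.689). Of 73 compared ones 9 fell (3.67% of all features did), 0 rose (5.72% did) and the median was -0.65. *Rps3A*, of the small subunit, had a ratio of 0.472 (0.464 to 0.48), and *Rpl23a*, of the large subunit, 0.477 (0.463 to 0.492). Mitotic genes were summed at a ratio of 0.787 (0.766 to 0.809) with 1 rise and 0 falls among 21. DNA replication genes were summed at 0.81 (0.789 to 0.83) with 1 rise and 1 fall among 50, the fall being *Mcm5*, of the replicative helicase, at 50.2 and 24.4 CPM (0.486, 0.398 to 0.589). The replication list is a name match that also takes a few unrelated genes, and these enter its summed ratio. Its 1 rise was such a gene, a model of the transporter gene *Orctl3* (46 and 67 UMIs).

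Ratios differed between shallow and deep cells. Cells with at least 3000 UMIs gave 37.6% of UMIs at 42 hpf and 16.6% at 48 hpf, and these cells held 2288 of the 3878 *Giant* UMIs, 1525 of the 2353 *Evi1* UMIs and 515 of the 860 *Scl* UMIs at 42 hpf. Within these deep cells *Giant* had a ratio of 0.264 (0.225 to 0.307), *Evi1* 0.33 (0.27 to 0.39), *Cyp27L* 0.38 (0.33 to 0.44) and *Scl* 0.50 (0.39 to 0.64). Among cells of 500 to under 1200 UMIs, *Cyp27L* had 46 and 72 UMIs and a ratio of 0.93 (0.63 to 1.38), and *Evi1* 26 and 29 UMIs and 0.66 (0.38 to 1.17). *Lbx* had 123 of its 124 UMIs at 42 hpf in deep cells. *Alx1*, *Sim*, *Hox8_1*, *Wnt9*, *Wnt3*, *Msp130r2* and *Lbx* were above 1 in at least 1 shallower range, mostly on few UMIs. *Dkk1* was below 1 in each range, at 0.274, 0.418, 0.418 and 0.447, as was *Acsc*, at 0.51, 0.557, 0.588 and 0.417. In cells of 800 to under 1800 UMIs alone, a range chosen after seeing the data, 161 features fell and 509 rose. The medians of gut and coelom genes and of skeletal matrix genes there were 0.18 and 0.44, both turned in sign. *HesA* and *Bmp3* turned there too, to log2 ratios of 0.11 and 0.41. The part of depth per cell in the falls was not tested.

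Some other ratios kept their direction across depth, and some rises did not, *Cyp2L62* and *Trpc5_2* being below 1 in 1 range each. Ribosomal protein genes together were at 0.78, 0.83, 0.76 and 0.70 in cells of 500 to under 1200, under 1800, under 3000 and at least 3000 UMIs. *Secrtag* was higher in each range, at 3.49, 1.93, 3.65 and 1.70, and so was *Kiaa1751L_1*, at 9.67, 17.1, 3.23 and 6.18. *Tektin3* was higher in each as well, at 1.28, 1.41, 1.92 and 3.87. *Mif4* was 1.01 (0.95 to 1.08) in cells of 1200 to under 1800 UMIs and 1.45 to 1.83 in the other ranges.

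**Figure D4:**
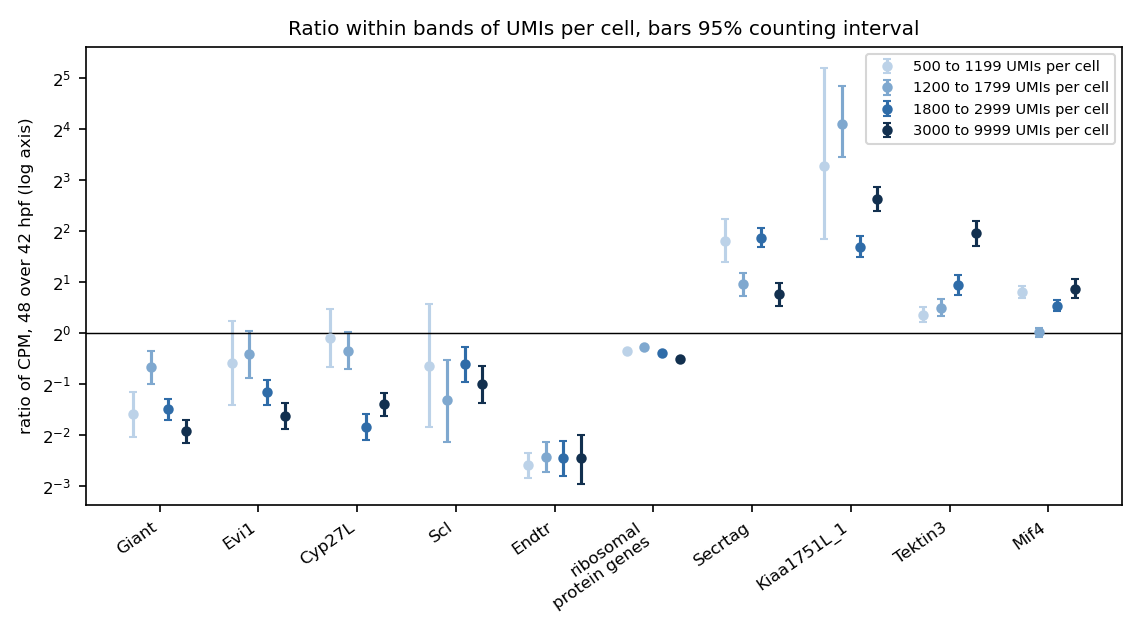
Ratio of CPM, 48 over 42 hpf (y axis, log), for 9 genes and the summed ribosomal protein genes within 4 ranges of UMIs per cell, with 95% counting intervals. *Endtr* is near 0.18 in every range, whereas *Evi1* and *Cyp27L* are nearer to 1 in the 2 shallower ranges.

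*Endtr*, the fall found in the most cells of those read cell by cell, went from 335 to 72.9 CPM (0.218, 0.196 to 0.241), with ratios of 0.17, 0.19, 0.18 and 0.18 in the 4 depth ranges. It was spread thinly over many cells, in 2034 of 4268 cells (47.7%) at 42 hpf and 389 of 4080 (9.53%) at 48 hpf, with means of 1.42 and 1.07 UMIs per such cell. In pigment cells, taken as those with at least 3 UMIs of *Pks1*, *Fmo5_1* and *Fmo2_2* together, it was in 83 of 136 and 35 of 228. Its levels were 118, 103 and 186 CPM at 36, 56 and 60 hpf.

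Single cells held most UMIs behind 2 of the most extreme ratios. *Tmtc3*, a membrane mannosyltransferase gene, had 22 and 325 UMIs (22.3, 14.5 to 36.2), but 1 cell held 313 of the 325. Without the top cell of each library its ratio was 1.01 (0.443 to 2.21). Its level was 2 to 3.63 CPM at the 4 other ages. The largest fall over all features was HER_16524.t1, a model with no symbol, chosen here after its values were seen. It had 1971 and 11 UMIs, and 1 cell held 1857 of the 1971. Without the top cells 114 and 9 UMIs were left, a ratio of 0.119 (0.0532 to 0.235). Among the 785 higher features 9 had at least 50% of their 48 hpf UMIs in 1 cell, and among the 504 lower features 8 had at least 50% of their 42 hpf UMIs in 1 cell. Without the top cells no named rise or fall for which a ratio could be had turned in direction, though *Tmtc3* and *Sert* were no longer past 2-fold.

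Shares of cells gave the same direction as levels for most genes. After thinning to 500 UMIs, which left out 0 cells, *Giant* was found in 8.15% (7.35 to 9.02) of cells at 42 hpf and 2.11% (1.69 to 2.6) at 48 hpf. *Evi1* went from 6.02% (5.33 to 6.78) to 1.72% (1.34 to 2.16), *Cyp27L* from 6.58% (5.86 to 7.37) to 2.52% (2.07 to 3.05) and *Scl* from 1.34% (1.01 to 1.73) to 0.466% (0.281 to 0.726). *Secrtag* went from 1.92% (1.53 to 2.38) to 3.46% (2.92 to 4.06), *NeuroD* from 0.281% (0.145 to 0.491) to 1% (0.722 to 1.36), *Phox2* from 0.0234% (0.000593 to 0.13) to 0.441% (0.262 to 0.696) and *Tektin3* from 11.9% (10.9 to 12.9) to 20.5% (19.3 to 21.8). Without thinning, the shares were 15.8% and 5% for *Giant*, 14.6% and 3.82% for *Evi1*, 14.8% and 5.83% for *Cyp27L*, 2.86% and 1.2% for *Scl*, 3.02% and 5.34% for *Secrtag*, 0.703% and 1.37% for *NeuroD*, and 0.164% and 0.637% for *Phox2*. Among these genes the intervals of both ages overlapped for none after thinning. They overlapped for *Alx4*, at 0.445% (0.268 to 0.694) and 0.147% (0.054 to 0.32), and for *Dmrt*, *Wnt9*, *Wnt10* and *Lbx*. Of all genes read cell by cell, 11 kept their direction with intervals that were apart before thinning and overlapped after it.

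Cells of a class not known for these genes gave the level to be read as background, except for *Giant*. These were pigment cells as defined for *Endtr*, a gate chosen after seeing the data, 136 cells with a median of 1574 UMIs at 42 hpf and 228 with 1172.5 at 48 hpf. *Evi1* was in 2.21% and 0.439% of them, *Cyp27L* in 1.47% and 0.877%, *Scl* in 1.47% and 0%, *Secrtag* in 2.21% and 0.439%, and *NeuroD* and *Phox2* in 0% of both, with upper bounds of 2.68% and 1.6%. *Tektin3* was in 2.94% and 7.02%. *Giant* was in 11% and 11.8% of them, against 15.8% and 5% of all cells. At 36, 56 and 60 hpf it was in 7.52%, 14.9% and 31.8% of such cells, against 12.7%, 5.41% and 8.59% of all cells. The gate was therefore not read as background for *Giant*. With pigment cells taken by *Pks1* alone (at least 3 UMIs), only 19 and 9 cells were left, with *Giant* in 2 and 1 of them and *Evi1*, *Cyp27L*, *Scl*, *Secrtag*, *NeuroD* and *Phox2* in 0.

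**Figure D5:**
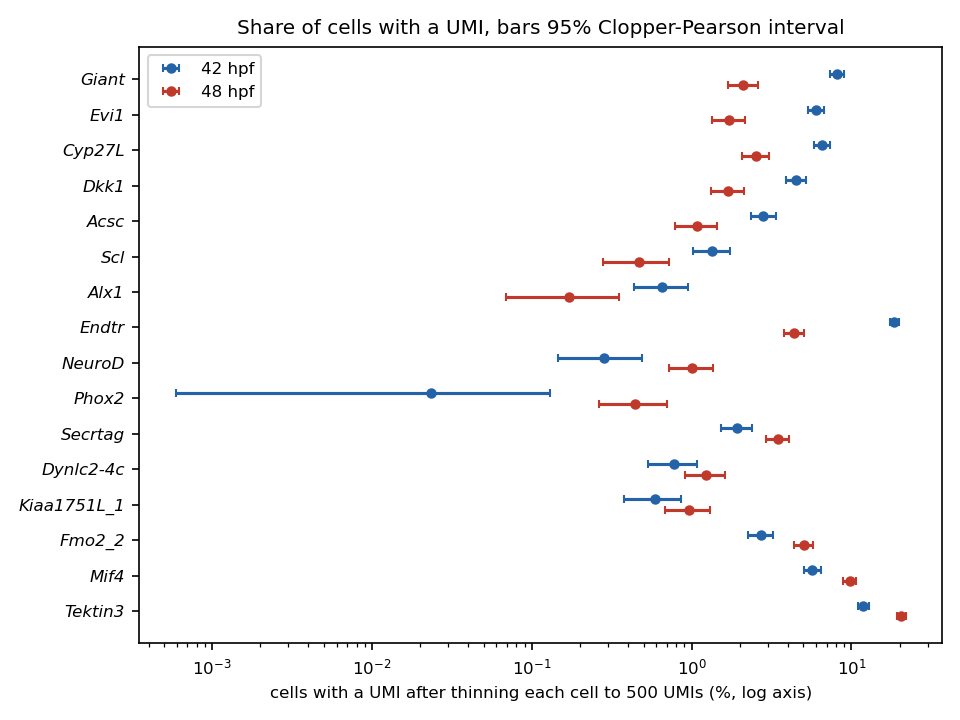
Share of cells with a UMI of each of 16 genes (x axis, percent, log) at 42 hpf (blue) and 48 hpf (red) after thinning each cell to 500 UMIs, with 95% Clopper-Pearson intervals. The 8 upper genes are lower at 48 hpf and the 8 others are higher, with overlapping intervals for *Dynlc2-4c* and *Kiaa1751L_1*.

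Levels at the other ages are set beside the step without a test, since neighbouring steps share a library. The share of compared features that were at least 2-fold higher was 2.45% for the step before (36 to 42 hpf), 9.2% for the step after (to the library labelled 56 hpf) and 2.01% for the last step, and the lower shares were 3.34%, 1.39% and 11.3%. *Evi1* was 123 CPM at 36 hpf and 61.3 and 24.6 CPM at 56 and 60 hpf, so 42 hpf was its highest library. *Scl* was likewise 38.9 CPM at 36 hpf and 35.1 and 21.8 CPM at the later ages. *Phox2* reached 88.7 CPM at 56 hpf and was 15.7 CPM at 60 hpf, and *Hb9* was 25.5 and 7.42 CPM. *Dynlc2-4c* was 743 and 491 CPM at these ages. *Maoa_2*, a monoamine oxidase gene among the 12 largest falls, was 131, 31.5, 7.01, 50.6 and 101 CPM over the 5 ages, highest at 36 hpf and lowest at 48 hpf.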

How the data were processed

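Single-cell libraries of *H. erythrogramma* larvae were made by the authors from methanol-fixed cells with 10x Chromium 3' v3.1 chemistry, sequenced on 1 flow cell, and processed with Cell Ranger 3.1.0 per the submitters' processing notes. The deposited values are UMI counts per feature and barcode, whole numbers with no normalization. The library labelled 56 hpf has another age in its file name, and the label was kept. The genome build was not given in the sources used here.

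UMIs of kept cells (23 barcodes removed at 42 hpf, 5 at 48 hpf) were summed to 8632541 and 5707350 and scaled to CPM in Python 3.11.15. Ratios have exact conditional binomial 95% intervals. A feature was compared with at least 20 UMIs over both libraries, and 0 counts were set to 3. Size factors came from DESeq2 1.42.0 and edgeR 4.0.16 in R 4.3.3, with no gene-wise test. Shares of cells have Clopper-Pearson intervals. Intervals and ratios were tested on simulated data. No doublet caller was run. Alternatives changed the scaling, the cells or features that entered, the CPM added and the thinning, and 3 were added after seeing the data.

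Named genes were the 12 largest rises and falls by the interval bound nearest no change (at least 50 UMIs, with a symbol), up to 4 in each direction per list (at least 20 UMIs), all members of the skeletal, pigment, rudiment, posterior ectoderm and transmitter lists, and class markers. The genes read cell by cell were chosen after their levels were seen. Members, lists and their matches were chosen with earlier results of these data known. A few genes are not reported here.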

Additional observations from a re-analysis of the deposited data

How the results depend on the processing

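The counts of at least 2-fold higher and lower features were 785 and 504. They became 509 and 788 with TMM factors, 391 and 273 with 1 CPM added, 56 and 52 with 10 CPM added, 3943 and 1029 over all features with a UMI, 219 and 210 with at least 100 UMIs, and 509 and 161 in cells of 800 to under 1800 UMIs. Size factors gave 532 and 753. With at least 100 UMIs, the median log2 ratio of histone genes turned to -0.15. In cells of 800 to under 1800 UMIs, median log2 ratios turned for skeletal matrix (0.44), gut and coelom (0.18) and ciliary band genes (-0.0108), as did the log2 ratios of *P16* (2.91), *Sm37* (4.95), *Msp130r2* (4.81), *Bmp3* (0.41) and *HesA* (0.11). *Tmtc3* turned to -0.28 in cells with over 500 genes, *Cdc20* to -0.40 with copies summed, and the *Dynlc2-4c* share difference to 0.45 percentage points after thinning. Intervals of 11 other shares were apart before thinning and overlapped after it. The causes were not tested. The alternatives on cells of 800 to under 1800 UMIs, on top cells and on the wider pigment gate were added after seeing the data. Features with few UMIs limit the higher count, and 1 library per age limits all values. No paired analysis was possible because each age has 1 library.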
